A study of Mus musculus with 8 samples.

Results

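The genes described here are 38 transcripts of the interferon response and of antigen presentation, measured by RNA sequencing in primary mouse articular chondrocytes. They are those of 42 listed genes whose mean over the 8 libraries was at least 0.5 FPKM (fragments per kilobase of transcript, scaled to the mapped fragments of the library), out of 24067 genes in the table and 12517 at or above that mean. The chondrocytes came from the femoral condyles and tibial plateaus of ICR mice at 5 days of age and were kept at low oxygen in medium with serum. The mimic of miR-204 or a control small RNA, miR-Ctrl, was transfected at 50 nM for 24 h, and RNA was taken 24 h after that. Each group had 4 libraries, numbered 1 to 4 in both. Nothing in the labels says that they came from separate cultures or animals, so p-values reflect the spread among these libraries alone and that spread may be technical.

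Interferons are secreted proteins that warn cells of infection. Type 1 interferons act through transcription factors such as STAT2 and IRF9 at the interferon-stimulated response element, while interferon gamma acts at gamma-activated sites. The products block viral replication, sense foreign RNA and raise the display of peptides on MHC class I molecules. Transfected double-stranded RNA can itself set off this response through RNA sensors, and both groups here received a small RNA.

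Libraries of equal number were alike: deviations from the group means correlated at r = 0.45, 0.81, 0.75 and 0.61 for numbers 1 to 4 across 12517 genes, which are not independent replicates. Values within a number are therefore given beside those of the groups, and a pair below means the 2 libraries of a number. Both libraries of number 2 stood apart. They had a relative depth of 0.774 (miR-Ctrl) and 0.796 (miR-204) against 0.927 to 1 in the other 6. They held 42841 and 27657 FPKM, respectively, summed over 24 inflammatory genes such as Saa3 and Lcn2, against 112 to 757 in the others. The 14 chondrocyte markers found summed to 14802 and 15179 FPKM in the libraries of number 2 (miR-Ctrl and miR-204) and to 28226 to 45363 FPKM in the other 6. Their median differences in pairs 1 to 4 were −0.14, 0.090, −0.13 and −0.13. With the replicate block described below 2 of 14 fell (Hapln1 and Comp) and 1 rose (Chad), where 2.70% of all genes fell and 11.7% rose. With libraries centred on their median as well, 3 fell, among them Sox9 (adjusted p = 0.0176 by limma), and 1 rose. Of all genes 4.27% and 4.16% did so. The pan-leukocyte gene Ptprc did not exceed 0.0309 FPKM and 12 markers of dendritic, T, NK and B cells summed to at most 0.222 FPKM. The macrophage-associated lysosomal gene Cd68 rose with the block (adjusted p = 0.0110 by limma): it was at 2.003, 2.22, 0.545 and 1.28 FPKM in control libraries 1 to 4 and 4.75, 4.74, 3.49 and 2.76 FPKM in miR-204 libraries 1 to 4, while the 15 macrophage and leukocyte markers found summed to 10.1 to 25.8 and 14.4 to 25.7 FPKM. Of the smooth muscle and pericyte markers, 3 of 6 tested rose with the block (11.7% of all genes did), Acta2 also without it (adjusted p = 0.0255 by limma), and their list summed to 228 to 344 FPKM in the controls and 345 to 499 FPKM with miR-204. The fibroblast and synovial markers had median differences of 0.21, −0.14, 0.46 and 0.23 in pairs 1 to 4, with 8, 3, 8 and 8 of 9 higher with miR-204, and 2 rose with the block (Dpt and Thy1). Of the osteoblast and osteoclast markers, 2 of 5 rose with it (Acp5 and Ctsk). The part of these markers in the results was not tested.

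The mimic is named miR-204 without an arm. The mouse gene on chromosome 19 gives a 5p arm (22750610 to 22750631, plus strand, GRCm38.p6, from RefSeq) and a 3p arm (22750649 to 22750669), each with a seed of its own (bases 2 to 8, in capitals).
mmu-miR-204-5p: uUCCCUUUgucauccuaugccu
mmu-miR-204-3p: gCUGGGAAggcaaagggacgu
Sites were searched for the 5p arm alone. Its matches are AAAGGGAA (8mer), AAAGGGA and AAGGGAA (7mers). Searched in the longest 3′ UTR that the annotation gives a gene, 4 of 38 members (10.5%) held an 8mer or 7mer, against 3128 of 12010 tested genes with a 3′ UTR (26.0%). These were Xaf1 with an 8mer, and Oasl2, Rsad2 and Parp14 with a 7mer. The chance of a match rises with the length of the 3′ UTR, and the shares were not compared at equal length. These 4 had 3′ UTRs of 1730 to 3616 bases. Members without an 8mer or 7mer ranged from short ones, such as Ifi27 (71) and Isg15 (163), to Trim25 (3575). The 3′ UTR of Xaf1 held 2 matches, 8mers and 7mers counted together. Its first 8mer lies 1183 bases into the 3′ UTR. That match alone is shown with its flanks, the match in capitals, because Xaf1 is the only 1 of the 38 with an 8mer.
Xaf1: aagtggaaagAAAGGGAAagagaaggag
Such matches are where a microRNA can lower a transcript. The 4 members had log2 fold changes above 0 (Xaf1 0.74, Oasl2 0.43, Rsad2 0.50 and Parp14 0.41), none of which passed the test described next. Of these, Oasl2, Rsad2 and Parp14 reached the mean of 0.5 FPKM only through the miR-204 group, which favours a value above 0.

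Over the groups, all 38 members had a log2 fold change above 0, as did 9230 of the 12517 tested genes (73.7%). Rsad2, Mx2, Oas1a, Parp14 and Oasl2 reached the mean of 0.5 FPKM only through the miR-204 group. Their means were 0.24 to 0.43 FPKM with miR-Ctrl and 0.88 to 1.24 FPKM with miR-204. The filter thus favours a fold change above 0 in them, and they stay in the counts of members below. The members' median was 0.43 and that of all tested genes 0.064, on the scale log2(FPKM + 1), which understates changes of low genes. No member passed the test of miR-204 against miR-Ctrl: 0 of 38 by limma at an adjusted p of 0.05, with 3 at an unadjusted p under 0.05 (6.57% of all genes were higher at that level). Of all genes 0.0240% were called higher and 0.168% lower. With the replicate number as a block, a term that removes the level shared by the libraries of a number, 9 of 38 members (23.7%) rose and 0 fell, where 11.7% of all genes rose and 2.70% fell. With libraries centred on their median as well, 5 members (13.2%) rose and 0 fell, against 4.16% and 4.27% of all genes. The groups overlapped in every member but Ifi27l2a, and 4.31% of all genes were higher without overlap and 1.56% lower. In bulk samples, more responding cells and more RNA per cell cannot be told apart.

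The sign of the difference within each replicate number divided the members into a larger and a smaller set. In pair 2 some values lay close to 0 on either side, such as 0.015 for Gbp2, 0.052 for Tap1, −0.022 for Rsad2 and −0.050 for Parp14. The sets thus have no sharp border. In 27 of 38 members (71.1%) the miR-204 library was higher in pairs 1, 3 and 4 and lower in pair 2, a pattern found in 15.8% of all tested genes. In 10 members it was higher in all 4 pairs (26.3%, against 33.3% of all genes), and 0 members were lower in all 4 (7.36% of all genes). The remaining member was Ifit2, which was higher in pairs 2 and 4. The median difference over the members was 0.77, −0.20, 0.45 and 0.76 in pairs 1 to 4, against 0.051, 0.044, 0.098 and 0.068 over all genes. Higher in miR-204 were 37, 11, 37 and 38 of 38 members in pairs 1 to 4, and 63.9%, 61.4%, 73.8% and 70.0% of all genes. There is 1 library per group in a pair, so the difference between pair 2 and the others was not tested, and this split describes these libraries.

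**Figure D1:**
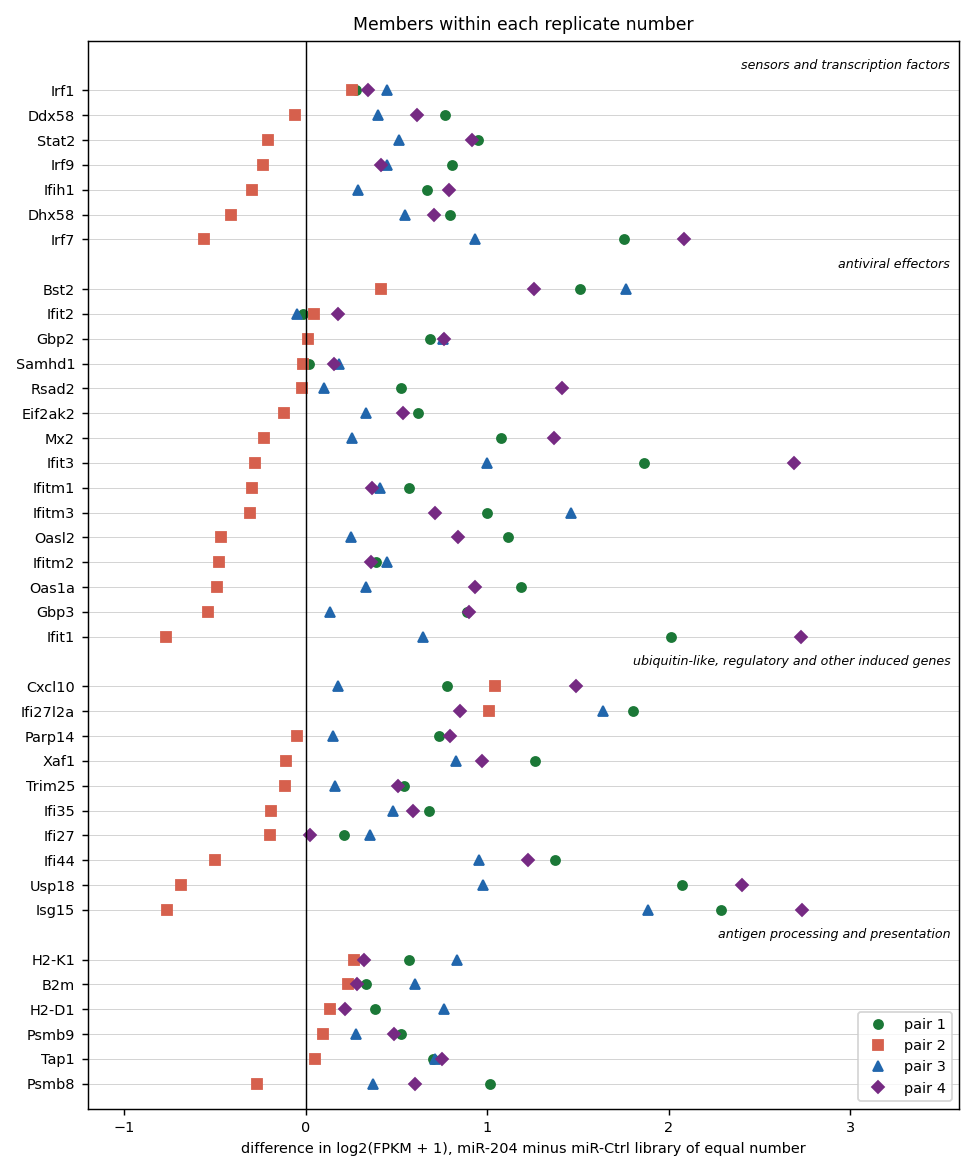
Each row is a member and each marker the difference in log2(FPKM + 1) between the miR-204 and the miR-Ctrl library of equal number (x axis), grouped by role. The squares of pair 2 lie left of 0 in 27 of 38 members, while pairs 1, 3 and 4 lie right of 0 in 37, 37 and 38.

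On the scale log2(FPKM + 1), ubiquitin-like, regulatory and other induced genes had the highest median log2 fold change of the 4 groups of members by role (0.75, against 0.41 for sensors and factors, 0.49 for antiviral effectors and 0.40 for antigen presentation). That scale understates low genes, such as the antiviral effectors Oasl2, Oas1a, Mx2, Rsad2 and Gbp3 (means of 0.56 to 0.80 FPKM) and Parp14 of the first group (0.65). The order of the groups was not compared on another scale. Isg15 (gene ID 100038882; chromosome 4, 156199424 to 156200818, GRCm38.p6) encodes a ubiquitin-like protein that is joined to other proteins during the antiviral response. It was at 17.4, 29.996, 2.18 and 4.88 FPKM in control libraries 1 to 4 and 88.4, 17.2, 10.8 and 38.04 FPKM in miR-204 libraries 1 to 4. The miR-204 library was the higher in pairs 1, 3 and 4, by 5.09, 4.94 and 7.80 times, and was at 0.574 times the control in pair 2, so the groups overlapped widely. Group means were 13.6 ± 12.8 FPKM for the controls and 38.6 ± 35.2 for miR-204 (mean ± SD, n = 4 each). Its log2 fold change was 1.53 ± 0.851 (SE, adjusted p = 0.677 by limma, and 0.103 with the block). Usp18 encodes the protease that takes ISG15 off its targets and restrains interferon signalling. It was likewise lower with miR-204 in pair 2 alone, at 1.999, 3.38, 0.434 and 0.810 FPKM with miR-Ctrl and 11.6, 1.71, 1.82 and 8.56 FPKM with miR-204. Ifi44 was at 8.99, 6.81, 3.97 and 3.31 FPKM with the control and 24.8, 4.51, 8.65 and 9.04 FPKM with miR-204, again lower with miR-204 in pair 2 alone. Xaf1, a pro-apoptotic gene induced by interferon, had differences of 1.26, −0.11, 0.83 and 0.97 in pairs 1 to 4, and Ifi35 had 0.68, −0.19, 0.48 and 0.59. Parp14 had differences of 0.73, −0.05, 0.15 and 0.79. Trim25, the ubiquitin ligase that helps activate the RNA sensor RIG-I (0.54, −0.11, 0.16 and 0.51) and the mitochondrial gene Ifi27 (0.21, −0.20, 0.36 and 0.021) were also lower with miR-204 in pair 2 alone.

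Cxcl10 and Ifi27l2a of the same group did not share that dip. Cxcl10, which encodes a chemokine that draws T cells, was at 5.20, 9.48, 1.26 and 0.810 FPKM with miR-Ctrl and 9.63, 20.6, 1.56 and 4.07 FPKM with miR-204, replicates 1 to 4. Its largest value was that of miR-204 replicate 2, 2.17 times its control. It rose with the block (log2 fold change 0.87 ± 0.192, adjusted p = 0.0353 by limma) but not with centred libraries (0.0571). Ifi27l2a (76933; chromosome 12, 103433873 to 103443680) was the only member whose groups did not overlap. It was at 2.998, 2.26, 0.590 and 2.17 FPKM in control libraries 1 to 4 and 12.97, 5.56, 3.94 and 4.72 FPKM in miR-204 libraries 1 to 4, where the lowest miR-204 library lay above the highest control. Its log2 fold change of 1.32 ± 0.383 did not pass without the block (adjusted p = 0.356 by limma) and passed with it (0.00983, and 0.00977 with centred libraries). The annotated interval of Ifi27l2a holds that of Ifi27 (103434189 to 103440245), a member with a mean of 104 FPKM. How reads were shared between these genes was not tested.

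**Figure D2:**
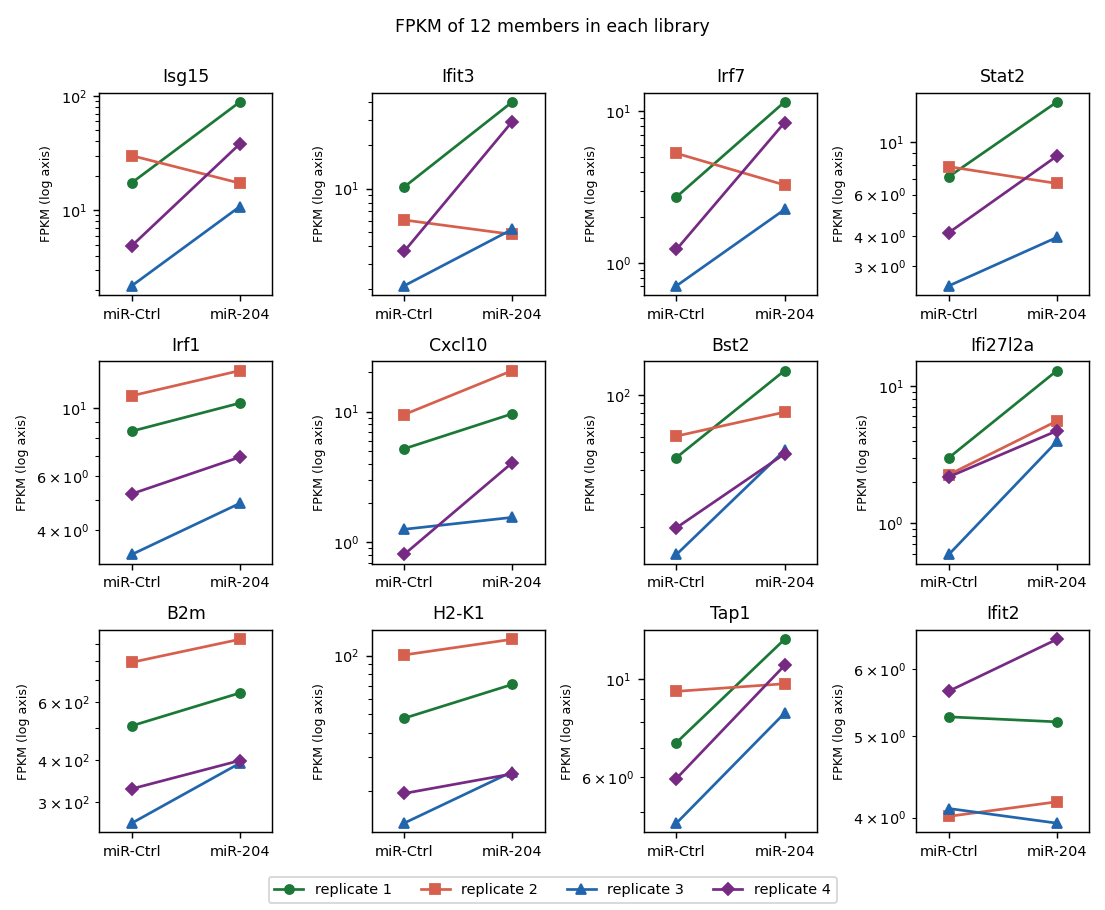
FPKM (log axis, a separate range in each panel) of 12 members in the miR-Ctrl and miR-204 library of each replicate number, joined by a line. Isg15, Ifit3, Irf7 and Stat2 fall along the line of replicate 2 and rise along the other 3, whereas Irf1, Cxcl10, Bst2, Ifi27l2a, B2m, H2-K1 and Tap1 rise along all 4 lines and Ifit2 changes little.

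Among antiviral effectors, 12 of 15 showed the dip in pair 2. Ifit3, of the family of proteins that bind foreign RNA caps and ends, was at 10.2, 6.06, 2.12 and 3.67 FPKM in control libraries 1 to 4 and 39.9, 4.82, 5.22 and 29.1 FPKM in miR-204 libraries 1 to 4. Ifit1, which binds RNA lacking a host cap, was at 2.83, 5.30, 0.449 and 0.709 FPKM with the control and 14.4, 2.70, 1.27 and 10.3 FPKM with miR-204. Both were several times higher with miR-204 in pairs 1 and 4, with ratios of 3.89 and 7.94 for Ifit3 and of 5.10 and 14.6 for Ifit1, and lower in pair 2. Their neighbour Ifit2 was at 4.01 to 5.65 FPKM with the control and 3.94 to 6.51 FPKM with miR-204, with a log2 fold change of 0.04 that turned to −0.032 with centred libraries. Of the transcript sequence, 51.2% of 50-base words of Ifit3 also occur in Ifit3b, and 7.13% of those of Ifit1 in its own relatives. The sources used here do not give how reads were shared among such copies, so the values of Ifit1 and Ifit3 may include them.

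Genes of the oligoadenylate synthetase family, known for starting RNA decay by RNase L, were low. Oas1a was at 0.433, 0.871, 0.0932 and 0.174 FPKM with miR-Ctrl and at 2.26, 0.335, 0.376 and 1.24 with miR-204, and it shares 57.6% of its 50-base words with Oas1g and Oas1b. Oasl2 was at 0.527, 1.05, 0.00901 and 0.122 FPKM with the control and 2.31, 0.482, 0.200 and 1.01 FPKM with miR-204. Rsad2, which encodes the antiviral enzyme viperin, was at 0.392, 0.390, 0.0739 and 0.122 FPKM with the control and 1.005, 0.369, 0.150 and 1.99 FPKM with miR-204, and the GTPase gene Mx2 at 0.569, 0.645, 0.0594 and 0.162 FPKM with the control and 2.30, 0.401, 0.264 and 1.998 FPKM with miR-204. All 4 had their highest value in miR-204 replicate 1 or 4 and were lower with miR-204 in pair 2. They reached the mean of 0.5 FPKM only through the miR-204 group, which favours a highest value there. Eif2ak2, the kinase PKR that halts translation on double-stranded RNA, was more abundant, at 4.21 to 9.61 FPKM with the control and 5.56 to 12.01 FPKM with miR-204, with differences of 0.62, −0.12, 0.33 and 0.54. Samhd1, which depletes nucleotides needed for viral DNA synthesis, did not pass in either fit (15.1 to 21.8 against 17.3 to 21.5 FPKM, log2 fold change 0.086).

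Membrane proteins that restrain viruses behaved unevenly. Bst2 (69550; chromosome 8, 71534255 to 71537472), or tetherin, which holds budding particles at the cell surface, was at 46.6, 60.5, 14.3 and 19.8 FPKM in control libraries 1 to 4 and 134, 81.02, 50.8 and 48.7 FPKM in miR-204 libraries 1 to 4. It was higher with miR-204 in all 4 pairs, by 2.88, 1.34, 3.56 and 2.46 times, although the groups overlapped because the controls themselves spread 4.23-fold. It rose with the block (log2 fold change 1.24 ± 0.203, adjusted p = 0.0178 by limma, and 0.0207 with centred libraries) but not without it (0.554). The IFITM genes, which hinder the fusion of viruses with membranes, did not pass in either fit. Ifitm3 had differences of 1.00, −0.31, 1.46 and 0.71 and ranged from 18.8 to 308 FPKM in the controls, Ifitm2 had 0.39, −0.48, 0.45 and 0.36, and Ifitm1 had 0.57, −0.29, 0.41 and 0.37. For Ifitm2, 48.5% of the 50-base words are found in annotated copies. Gbp2, a guanylate-binding GTPase that attacks the vacuoles of intracellular microbes, was at 2.89, 10.3, 0.351 and 1.17 FPKM with miR-Ctrl and 5.24, 10.4, 1.28 and 2.68 with miR-204. It rose with the block (log2 fold change 0.55, adjusted p = 0.0415 by limma; 0.0618 with centred libraries), with a difference of only 0.015 in pair 2. Gbp3 dipped there, with differences of 0.89, −0.54, 0.13 and 0.90 in pairs 1 to 4.

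Sensors and transcription factors split in the same manner. Irf7, the factor that amplifies type 1 interferon, was at 2.73, 5.29, 0.705 and 1.23 FPKM in control libraries 1 to 4 and 11.6, 3.27, 2.25 and 8.45 FPKM in miR-204 libraries 1 to 4 (log2 fold change 1.05 ± 0.537, adjusted p = 0.653 by limma, 0.125 with the block). Stat2 was at 7.13, 7.86, 2.48 and 4.15 FPKM with the control and 14.7, 6.68, 3.97 and 8.71 FPKM with miR-204, and Irf9, which binds DNA in the same complex, at 14.9, 12.4, 6.19 and 9.45 FPKM with the control and 26.8, 10.4, 8.79 and 12.9 FPKM with miR-204. All 3 factors were lower with miR-204 in pair 2 and higher in the other pairs. The RNA sensor genes followed: Ddx58 (RIG-I) had differences of 0.76, −0.058, 0.40 and 0.62, Ifih1 (MDA5) of 0.67, −0.30, 0.29 and 0.79 and Dhx58 (LGP2) of 0.79, −0.41, 0.55 and 0.71. Irf1, a factor induced by interferon gamma and by NF-kB, was the exception in this group. It was at 8.42, 11.002, 3.32 and 5.25 FPKM with miR-Ctrl and at 10.4, 13.3, 4.88 and 6.93 FPKM with miR-204. Each miR-204 library was higher than the control of its number, by a similar step of 0.28, 0.25, 0.45 and 0.34, so that the block removed most of the spread (SE 0.374 without it and 0.0459 with it). Irf1 rose with the block (log2 fold change 0.33, adjusted p = 0.0127 by limma; 0.0177 with centred libraries) and not without it (0.856).

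Antigen processing and presentation genes were higher with miR-204 in all 4 pairs in 5 of 6 cases. B2m, the light chain of MHC class I, was the most abundant member, at 509, 793, 258 and 328 FPKM in control libraries 1 to 4 and 640.4, 931, 393 and 399.9 FPKM in miR-204 libraries 1 to 4. H2-K1, a class I heavy chain, was at 47.5, 101, 13.7 and 19.5 FPKM with the control and 70.99, 121, 25.2 and 24.5 FPKM with miR-204, and H2-D1, another heavy chain, at 144, 168, 38.8 and 54.5 FPKM with the control and 189, 184, 66.3 and 63.5 FPKM with miR-204. In all 3 the controls differed 3.07-, 7.37- and 4.33-fold among themselves, while the ratios of miR-204 to miR-Ctrl ran from 1.10 to 1.84. B2m (log2 fold change 0.36 ± 0.0658, adjusted p = 0.0221 by limma) and H2-K1 (0.50 ± 0.0948, 0.0245) rose with the block, also with centred libraries (0.0330 and 0.0346). H2-D1 (0.37, adjusted p = 0.0556) did not, and 14.3% of its 50-base words and 8.11% of those of H2-K1 occur in other class I genes. Tap1, a subunit of the pump that brings peptides into the endoplasmic reticulum, was at 7.18, 9.37, 4.73 and 5.96 FPKM with the control and 12.3, 9.75, 8.37 and 10.7 FPKM with miR-204. It rose with the block (log2 fold change 0.55, adjusted p = 0.0340 by limma) and narrowly did not with centred libraries (0.0509). Psmb9 and Psmb8 encode subunits of the immunoproteasome, which cuts proteins into peptides for class I. Psmb9 rose with the block (log2 fold change 0.35, adjusted p = 0.0417 by limma, and 0.0875 with centred libraries). Psmb8 dipped in pair 2 (1.02, −0.27, 0.37 and 0.60) and did not pass with the block (adjusted p = 0.163 by limma). Psmb9 and Tap1 lie side by side on chromosome 17, at 34182030 to 34187330 and 34187556 to 34197225.

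The level of the members in the controls differed between replicate numbers. Among the controls, 31 of 38 members were highest in replicate 2 and 33 were lowest in replicate 3. With miR-204, 27 were highest in replicate 1 and 29 lowest in replicate 3. Isg15 spread 13.8-fold and Gbp2 29.4-fold over the 4 controls. Pair 2 thus had the highest control level in most members, the lower depth, the inflammatory transcripts and the lower sum of chondrocyte markers given above. These move together with the dip, and their part in it cannot be told apart in 1 pair.

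Of the pairs left out in turn, pair 2 changed the count of calls most. In the fit with the block on pairs 1, 3 and 4, 33 of 38 members (86.8%) rose and 0 fell, where 22.6% of all genes rose, and 8 of the 9 members called with 4 pairs were among them. Isg15 then had a log2 fold change of 2.30 ± 0.149 (adjusted p = 0.00282 by limma), Irf7 1.59 ± 0.210 (0.00869) and Stat2 0.79 ± 0.0927 (0.00741). The members not called were Ifit2, Rsad2, Samhd1, Ifi27 and Cxcl10. This choice of pairs was made with the values known, so it describes how far the 3 pairs moved together and is no independent support. Leaving out another pair removed calls: 0 members rose without pair 1 (0.543% of all genes did), 3 without pair 3 (1.56%) and 1 without pair 4 (0.224%).

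**Figure D3:**
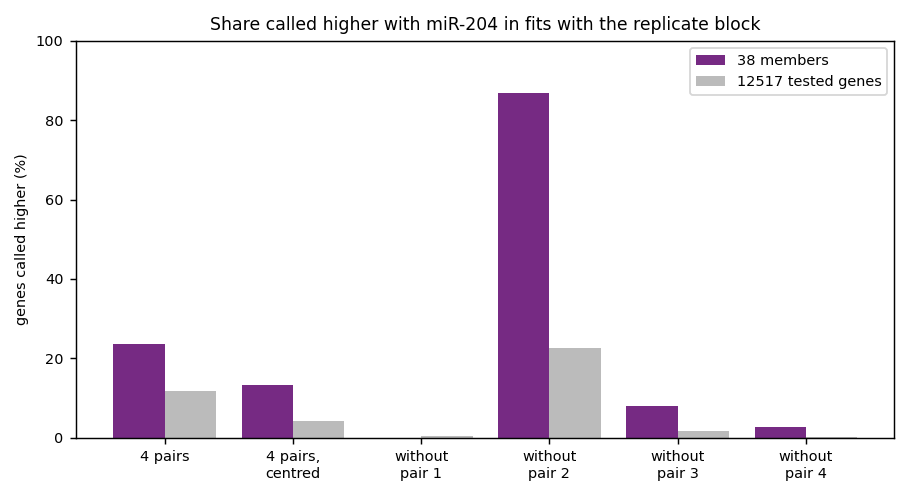
Bars give the share of the 38 members and of the 12517 tested genes called higher with miR-204 (y axis, percent) by limma with the replicate block, with 4 pairs, with 4 pairs and centred libraries, and without each pair in turn. The members' bar is above that of all genes with 4 pairs (23.7% against 11.7%) and far above it without pair 2 (86.8% against 22.6%), and is 0 without pair 1.

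Promoters of members were compared with those of other genes because the members moved together in 3 pairs. Each RefSeq promoter ran from 250 bases before to 50 after a start of transcription (GRCm38.p6), and 32 of 38 members had an entry. The core of the interferon-stimulated response element was searched as GAAA, any 2 bases and GAAA on either strand. It was found in the promoters of 16 of 32 members (50.0%), against 3.43% of 9946 tested genes and 2.79% of their 12713 promoters. The gamma-activated site, TTCNNNGAA, which reads the same on both strands, was found in 9 of 32 (28.1%), against 8.21% of genes. The first motif was in 12 of 22 members that dipped in pair 2 and in 4 of 9 that were higher in all pairs, so these letters alone did not divide the 2 sets. Genes known as interferon-induced were chosen as members, and such motifs in them are a description, not a measured site. The promoters of Isg15 and Ifit3, which dipped in pair 2, and of Bst2 and Irf1, which did not, are printed with the motifs in capitals, positions counted from the start of transcription.
Isg15 (chr4:156200769-156201068, minus strand): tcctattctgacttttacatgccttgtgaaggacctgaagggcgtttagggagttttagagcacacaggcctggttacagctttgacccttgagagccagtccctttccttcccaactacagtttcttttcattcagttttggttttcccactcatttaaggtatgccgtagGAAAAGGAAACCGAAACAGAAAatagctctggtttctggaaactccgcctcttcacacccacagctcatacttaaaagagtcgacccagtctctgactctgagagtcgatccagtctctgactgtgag
Ifit3 (chr19:34583279-34583578, plus strand): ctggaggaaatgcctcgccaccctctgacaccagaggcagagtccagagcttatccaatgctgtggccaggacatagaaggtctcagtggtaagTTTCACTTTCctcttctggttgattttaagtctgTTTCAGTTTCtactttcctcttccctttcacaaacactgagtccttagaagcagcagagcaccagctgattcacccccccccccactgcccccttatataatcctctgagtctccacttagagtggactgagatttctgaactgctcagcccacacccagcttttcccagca
Bst2 (chr8:71537423-71537722, minus strand): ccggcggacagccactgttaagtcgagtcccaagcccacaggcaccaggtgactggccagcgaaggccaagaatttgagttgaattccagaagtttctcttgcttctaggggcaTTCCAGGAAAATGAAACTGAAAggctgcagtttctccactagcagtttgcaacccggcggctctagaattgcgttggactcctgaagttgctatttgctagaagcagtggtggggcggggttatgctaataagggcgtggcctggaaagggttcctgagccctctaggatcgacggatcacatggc
Irf1 (chr11:53769764-53770063, plus strand): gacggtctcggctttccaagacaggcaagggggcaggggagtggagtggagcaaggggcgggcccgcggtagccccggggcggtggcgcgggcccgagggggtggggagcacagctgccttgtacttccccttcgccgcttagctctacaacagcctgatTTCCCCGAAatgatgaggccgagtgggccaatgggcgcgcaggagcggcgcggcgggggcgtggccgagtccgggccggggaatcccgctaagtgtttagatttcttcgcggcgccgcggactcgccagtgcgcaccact
Isg15 holds 3 copies of the first motif in a row, each overlapping the next, starting at −78, −72 and −66. Ifit3 holds 2 apart from each other, on the other strand, at −156 and −122. Bst2 holds 2 overlapping copies and a TTCNNNGAA that overlaps the first. The Irf1 promoter shown holds the second motif only, TTCCCCGAA, at −90, and the other Irf1 promoter in the table (chr11:53770223-53770522) holds neither.

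The wider pathway was described from lists of genes that were tested and are not members. Of 12 interferon and related cytokine genes, 0 reached a mean of 0.5 FPKM, and their sum was between 0.0469 and 0.234 FPKM in every library. That sum was the related cytokine gene Il15 alone, which is no interferon, except in the third control library, where Ifnb1 added to it. Ifnb1 was listed at 0.0444 FPKM in the third control library and at 0 in the other 7, and Ifng and Ifna4 at 0 in all 8. The 16 tested genes of interferon receptors and signalling had a median log2 fold change of 0.096, with 0 called by limma without the block and 2 higher (12.5%, against 11.7% of all genes) and 0 lower with it, a share near that of all genes. The interferon gamma receptor subunit gene Ifngr2 rose with the block, from 27.9, 48.1, 20.01 and 21.1 to 36.2, 60.04, 26.5 and 27.3 FPKM in replicates 1 to 4 (log2 fold change 0.36, adjusted p = 0.00512 by limma), as did Il10rb (0.27, 0.0416), whose adjusted p was 0.0787 with centred libraries. The type 1 receptor genes did not pass with the block, Ifnar1 at a log2 fold change of 0.11 and Ifnar2 at 0.12.

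Of 15 innate sensors and adaptors, 4 (26.7%, against 11.7% of all genes) rose with the block and 0 fell, and 3 rose with centred libraries (4.16% of all genes). They were Tlr2, a sensor of bacterial lipopeptides (log2 fold change 0.50, adjusted p = 0.0183 by limma), Tlr3, the endosomal sensor of double-stranded RNA (0.36, 0.0161), Ikbke, a kinase upstream of IRF3 (0.34, 0.0143), and Tlr4, the sensor of lipopolysaccharide (0.27, 0.0489, and 0.0952 with centred libraries). Tlr2 and Tlr4 do not sense nucleic acids, although the plot of list medians names the list for its nucleic acid sensors. Tlr3 was at 1.91, 2.18, 0.823 and 1.61 FPKM in control libraries 1 to 4 and 2.81, 2.77, 1.29 and 2.66 FPKM in miR-204 libraries 1 to 4, higher with miR-204 in every pair. Among 41 other interferon-induced genes, all had log2 fold changes above 0 (median 0.40), 0 passed without the block, and 10 (24.4%, against 11.7% of all genes) rose and 0 fell with it (5 with centred libraries, 12.2% against 4.16%). Slfn2, Cmpk2, Oas1b and Oas1c reached the mean of 0.5 FPKM only through the miR-204 group, which favours a value above 0 in them. Oas1c (0.438 FPKM with miR-Ctrl and 0.792 FPKM with miR-204) was among the 10. Ccl5, a chemokine gene, rose from 1.44, 21.1, 0.367 and 0.505 to 3.88, 36.5, 2.29 and 1.67 FPKM in replicates 1 to 4 (log2 fold change 0.97, adjusted p = 0.00509 by limma with the block). Gbp6 (0.73), Ifi30, a lysosomal thiol reductase of antigen processing (0.36), and Nmi (0.46) rose as well, with adjusted p-values of 0.0222, 0.0233 and 0.0311. The pattern of the members, higher in pairs 1, 3 and 4 and lower in pair 2, was seen in 21 of these 41 genes, against 15.8% of all tested genes. Their median in pair 2 was −0.027, against 0.58, 0.32 and 0.65 in pairs 1, 3 and 4.

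Of 22 further antigen presentation genes, 7 (31.8%, against 11.7% of all genes) rose with the block and 0 fell. Cd274, which was among the 7, and H2-Q6, which was not, reached the mean of 0.5 FPKM only through the miR-204 group. Their means were 0.498 and 0.162 FPKM with miR-Ctrl and 0.874 and 1.07 FPKM with miR-204, so the filter favours a value above 0 in them. With centred libraries 4 rose and 1 fell, where 4.16% and 4.27% of all genes did. Tapbp, or tapasin, which loads peptides onto class I, was at 69.8, 132, 34.2 and 42.7 FPKM with miR-Ctrl and at 119, 176, 64.7 and 66.9 FPKM with miR-204 (log2 fold change 0.68 ± 0.0775, adjusted p = 0.00825 by limma with the block). Its 4 steps all pointed upward, as did those of the class I gene H2-Q4 (0.56, 0.0120), the peptide trimmer gene Erap1 (0.37, 0.0148) and the proteasome activator gene Psme1 (0.27, 0.0150). The list's pair 2 median was 0.089, and those of pairs 1, 3 and 4 were 0.29, 0.21 and 0.22.

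Of 21 inflammatory genes tested, 7 (33.3%, against 11.7% of all genes) rose with the block and 0 fell (3 with centred libraries, 14.3% against 4.16%), and their pair 2 median was −0.13. Icam1, an adhesion molecule induced by NF-kB, was at 59.6, 99.6, 11.7 and 17.4 FPKM with miR-Ctrl and at 89.5, 134, 18.7 and 21.9 FPKM with miR-204 (log2 fold change 0.49, adjusted p = 0.00889 by limma with the block). Ccl2 (0.72, 0.0266), Vcam1 (0.46, 0.0268) and Nfkbia (0.20, 0.0340) rose as well, Nfkbia not with centred libraries (0.113), while Saa3, an acute-phase gene, was lower in pairs 1 and 2 and higher in pairs 3 and 4. Of the 21 inflammatory genes, 8 (38.1%) were higher with miR-204 in pair 2, against 61.4% of all genes. Icam1 was among the 8 and was named for its call with the block, which favours genes higher in every pair. Cxcl10 was also higher in pair 2, whereas Isg15 and Ifit3 were lower there, as were the inflammatory genes Saa3 and Lcn2.

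**Figure D4:**
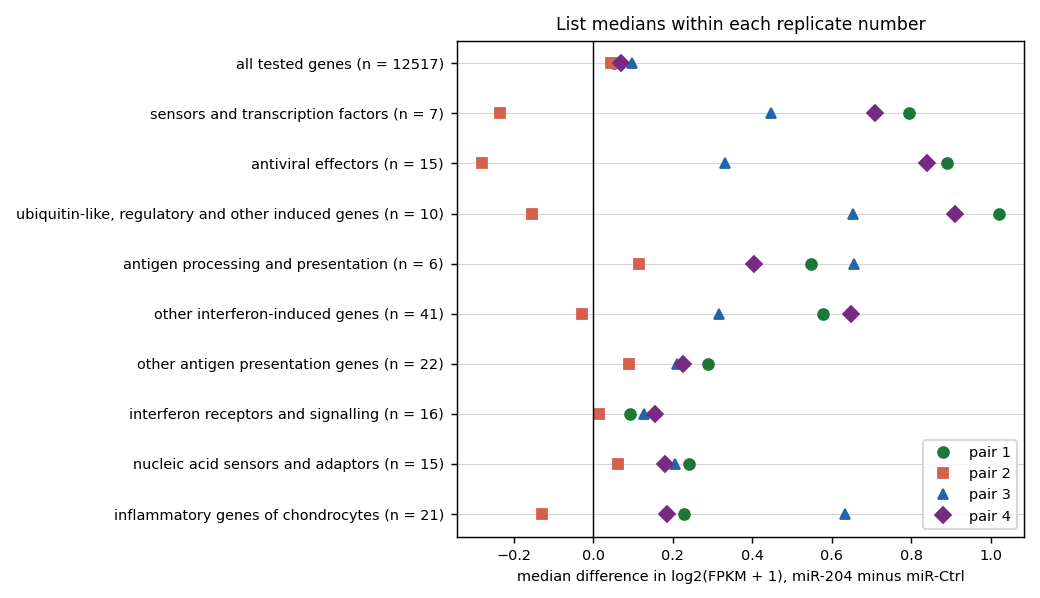
Median difference in log2(FPKM + 1) between the miR-204 and miR-Ctrl library of equal number (x axis) for all tested genes, the 4 groups of members and 5 further lists, with the number of genes tested in each. In pair 2 the 3 groups of sensors, effectors and other induced genes lie below 0 (−0.23, −0.28 and −0.15), and the antigen presentation members lie at 0.11.

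The 4 listed genes below 0.5 FPKM were Nlrc5, the activator of class I genes (mean 0.413 FPKM), Oasl1 (0.172), Mx1 (0.135) and Oas2 (0.0564), while the lowest members kept were Rsad2 (0.561) and Parp14 (0.648). The 4 below the minimum were not tested. Nlrc5 was at 0.436, 0.809, 0.0868 and 0.161 FPKM in control libraries 1 to 4 and 0.641, 0.571, 0.168 and 0.433 FPKM in miR-204 libraries 1 to 4, again lower with miR-204 in pair 2 alone. Mx1 did not exceed 0.121 FPKM but for miR-204 replicate 4, at 0.776 FPKM.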

How the data were processed

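The deposited values were FPKM per gene and library, which the authors made with TopHat (no version stated) and Cufflinks 2.2.1 on mm10, per the submitters' processing notes. Per the labels' protocols the kit was stranded and selected mRNA. The sources used here do not state the Cufflinks mode, the read totals or the handling of multi-mapped reads. Relative depth was the commonest ratio between libraries of FPKM values below 0.1 in genes with 1 transcript, so it rests on read steps and has no error. Of 158 gene symbols missing or turned into dates, 156 were restored by Entrez identifier.

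Groups and numbers were taken from the labels. The 12517 genes averaging 0.5 FPKM or more entered a two-sided limma test (version 3.58.1, R 4.3.3, trended prior) on log2(FPKM + 1), and p-values were adjusted by Benjamini-Hochberg over all of them, with a threshold of 0.05. Libraries of equal number were paired, each pair's correlation of deviations being above 0.1 and each library correlating best with its own number. This pairing was read from the values, as the labels hold the number alone. The fit with the number as a block is therefore printed where it changed a call. The code was tested on simulated data.

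The members and lists were chosen with earlier results of these data known. Any member could be named. From each other list the genes called in either fit were named, at most 4 by adjusted p. Ifnar1, Ifnar2, Saa3, Lcn2, Ptprc, Il15, Ifnb1, Ifng and Ifna4 were chosen after their values were seen. Adgre1, Snorc, Ifit3b, Ifit1bl1 and Rnf213 were not matched and are not analysed here. Cnmd and Lgp2 were matched under the symbols Lect1 and Dhx58. Transcripts came from GENCODE M21 and promoters, gene positions and the microRNA from RefSeq (GRCm38.p6).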

Additional observations from a re-analysis of the deposited data

How the results depend on the processing

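Without the block, limma called 0 of 38 members under every scaling, filter, pseudocount and left-out library or pair tried (of the 31 kept at a minimum mean of 1 FPKM). With the replicate block it called 9 higher, 5 with centred libraries too, and 8 (pseudocount 0.1) and 6 (quantile normalization) in fits added after seeing the data. With the block and without replicates 1, 2, 3 and 4 in turn it called 0, 33, 3 and 1. In the fits on all 4 pairs, the block changed the call of no member beyond those 9. The median log2 fold change of the members stayed above 0, at 0.21 to 0.67 with a library or pair left out, 0.76 with a pseudocount of 0.1 and 0.36 with centring.

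Over all genes, 3 were higher and 21 lower without the block. These counts became 1459 and 338 with it, 521 and 534 with block and centring, 1452 and 342 with block and pseudocount 0.1, 556 and 527 with block and quantile normalization, 8 and 56 with centring, 7 and 64 with quantile normalization, and 12 lower with no filter. Leaving out a library or pair gave 0 to 5 higher and 0 to 16 lower without the block. With it, leaving out replicates 1, 2, 3 and 4 gave 68, 2828, 195 and 28 higher and 66, 522, 124 and 40 lower. The cause of these shifts was not tested. FPKM values carry no read totals, so what depth limits could not be computed.

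The further lists had 0 calls without the block. The counts called higher follow in the order replicate block, block with centring, block with pseudocount 0.1, block with quantile normalization. They were 2, 1, 2 and 1 for receptors and signalling, 4, 3, 3 and 3 for innate sensors and adaptors, 10, 5, 13 and 5 for other induced genes, 7, 4, 7 and 4 for antigen presentation (with 1 lower under centring and under quantile normalization) and 7, 3, 4 and 3 for inflammatory genes. Without replicate 2 they were 7, 8, 32, 11 and 8 in that order of lists, and 0 to 3 without another replicate.

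Directions reversed in 4 members. The Ifit2 log2 fold change went to −0.032 with centring (with or without the block), −0.042 with quantile normalization, and −0.079 to −0.0056 in the fits without miR-Ctrl replicate 2 (−0.023), miR-Ctrl replicate 3 (−0.015), miR-204 replicate 4 or pair 4. Without miR-Ctrl replicate 3, the Samhd1 log2 fold change was −0.0020, the Ifitm2 log2 fold change −0.034 and the Ifi27 log2 fold change −0.016. Ifitm2 was at −0.062 without miR-204 replicate 2, and Ifi27 at −0.051 without miR-204 replicate 1. Over all fits with a library or pair left out, the highest values were 0.12 for Ifit2, 0.17 for Samhd1, 0.64 for Ifitm2 and 0.21 for Ifi27. The cause was not tested.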
